A study of Mus musculus with 72 samples.

Results

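The 10 genes described here code for the matrix of hyaline cartilage: Acan, Col2a1, Col9a1, Col9a2, Col9a3, Col11a2, Hapln1, Matn1, Comp and Cnmd. They were listed by symbol without a threshold on any measured value, but with earlier results of these data known. All 10 were found among the 54532 genes of the deposited tables. All 10 also passed the filter on low counts, which left 22144 genes tested.

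RNA of mouse olfactory epithelium, the tissue that holds the smell neurons, was sequenced in 72 libraries that fall into 25 groups. The ectopicFzd1 groups carried Omp-IRES-tTA together with tetO-Fzd1-IRES-tdTomato: the gene of olfactory marker protein, active in mature olfactory neurons, drives the activator tTA, which switches on the Wnt receptor gene Fzd1 together with the red protein tdTomato. The Fzd1lacZ groups (genotype Fzd1-lacZ) carried a knockout allele of Fzd1, and the control groups carried Omp-IRES-tTA. In the sample titles the Fzd1lacZ libraries are marked homo, the ectopicFzd1 libraries het, and the control libraries wt or ctrl. All 3 genotypes were sampled without doxycycline (DOX) at postnatal day (P) 0, 3, 7, 10 and 14. The ectopicFzd1 and control genotypes were also sampled after DOX from P0, which switches the transgene off, at P1, P3, P7, P10 and P14. Each group held 3 libraries, except ectopicFzd1 P14, control P3 and control P7, which held 2. A tetO construct that lacks Fzd1 was in none of the groups, so effects of Fzd1 and of tdTomato are not separated. The labels do not say whether the Fzd1-lacZ mice carried the tTA allele. Nor do they say that the libraries of a group came from separate animals; p-values refer only to the spread of these libraries, which may be technical.

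Gene counts per library ranged from 1314528 to 8788000. Fzd1 lay at 43.0 to 2122 CPM (read counts scaled to library sizes that TMM had adjusted) in ectopicFzd1, at 3.48 to 20.3 CPM in Fzd1lacZ and at 20.9 to 44.3 CPM in control libraries. With DOX it lay at 22.0 to 64.0 CPM in ectopicFzd1 and at 3.45 to 54.3 CPM in control. At P0 without DOX it was already at 205 to 354 CPM in ectopicFzd1, against 38.2 to 44.3 CPM in control. The groups given DOX from P0 are thus not groups in which the transgene was never on. In Fzd1, 1 library labelled ectopicFzd1 P3 (replicate 3) and 1 labelled control DOX P7 (replicate 1) went against their labels. The summed level of 10 genes of mature olfactory neurons lay between 942 and 8904 CPM over all libraries, so the labelled tissue was present in each.

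Hyaline cartilage forms the septum and the capsule of the nose, next to the bone and connective tissue on which the olfactory lining rests. Its cells, the chondrocytes, build a network of collagen fibrils filled with a water-binding proteoglycan, and the transcription factors Sox9, Sox5 and Sox6 switch on many of the genes of that network. The labels name olfactory epithelium only, and do not state whether cartilage was left on the tissue. In bulk samples such as these, fewer cells of a type and less RNA per cell cannot be told apart.

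The fibril genes were Col2a1 (chr15:97975602-98004695, minus strand, in mm10), which makes type II collagen, the main fibril protein, and Col11a2 (chr17:34039437-34066685, plus strand), a chain of type XI collagen in the fibril core. Col9a1 (chr1:24177610-24252684, plus strand), Col9a2 (chr4:121039385-121055322, plus strand) and Col9a3 (chr2:180597790-180622189, plus strand) make the chains of type IX collagen, which coats the fibrils. The proteoglycan genes were Acan (chr7:79053483-79115099, plus strand), the gene of aggrecan, and Hapln1 (chr13:89539796-89611652, plus strand), the gene of the link protein that ties aggrecan to hyaluronan. Matn1 (chr4:130944385-130955475, plus strand) makes matrilin 1 and Comp (chr8:70373558-70382066, plus strand) makes cartilage oligomeric matrix protein, both of which bridge matrix molecules. Cnmd (chr14:79637690-79662170, minus strand) makes chondromodulin, an inhibitor of blood vessel growth in cartilage. All 10 are protein-coding. Col9a3 overlaps Tcfl5 and Hapln1 overlaps the pseudogene Gm8546, both on the opposite strand, and the use of strand in the counting is not given in the sources used here, so reads of the partners cannot be told apart in these genes.

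Promoter sequence, from 250 bases before to 50 bases after a start site, was taken from RefSeq on GRCm38.p6, the same build as mm10, and was matched for 7 of the 10 genes: Acan, Col9a1, Col9a2, Col11a2, Hapln1, Matn1 and Cnmd. Col9a1 had 2 start sites. Col2a1, which the results name most often, had no window. The 4 promoters shown are a choice made with the results known: Acan and Col11a2, which like Hapln1 were called lower in ectopicFzd1 at P0, Col9a2, which was called in the Fzd1lacZ mean over ages, and Matn1, which differed most between P1 with DOX and P0. Capitals mark the motif TATAAA.
Acan, chr7:79052976-79053275, plus strand: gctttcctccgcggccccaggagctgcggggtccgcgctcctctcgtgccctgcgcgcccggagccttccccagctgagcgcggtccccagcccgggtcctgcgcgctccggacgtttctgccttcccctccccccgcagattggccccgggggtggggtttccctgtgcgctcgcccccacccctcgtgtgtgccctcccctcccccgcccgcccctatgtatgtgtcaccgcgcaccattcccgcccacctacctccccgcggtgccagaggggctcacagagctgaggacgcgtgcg
Col9a2, chr4:121039316-121039615, plus strand: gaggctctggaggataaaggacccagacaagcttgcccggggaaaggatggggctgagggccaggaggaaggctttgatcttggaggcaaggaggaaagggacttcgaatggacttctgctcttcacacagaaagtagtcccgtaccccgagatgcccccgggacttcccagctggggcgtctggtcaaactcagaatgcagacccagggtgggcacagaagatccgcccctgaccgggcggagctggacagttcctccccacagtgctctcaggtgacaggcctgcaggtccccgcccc
Col11a2, chr17:34038888-34039187, plus strand: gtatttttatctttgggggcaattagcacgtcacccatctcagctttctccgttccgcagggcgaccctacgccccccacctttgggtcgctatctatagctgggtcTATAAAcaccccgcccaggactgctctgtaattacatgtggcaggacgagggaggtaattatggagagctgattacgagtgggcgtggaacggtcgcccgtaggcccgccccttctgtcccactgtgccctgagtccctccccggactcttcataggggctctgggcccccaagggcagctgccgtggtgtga
Matn1, chr4:130944135-130944434, plus strand: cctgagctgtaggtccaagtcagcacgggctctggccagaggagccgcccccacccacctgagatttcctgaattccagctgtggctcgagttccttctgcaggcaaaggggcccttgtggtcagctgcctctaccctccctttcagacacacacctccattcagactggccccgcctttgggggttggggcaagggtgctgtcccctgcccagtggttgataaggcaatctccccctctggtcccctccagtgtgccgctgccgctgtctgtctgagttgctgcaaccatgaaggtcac
The base composition of these windows spread widely. Acan had 74% G and C with 31 CpG sites, Col9a2 61.7% with 10, Matn1 61.3% with 6 and Col11a2 59% with 16, while the upstream Col9a1 window had 47.3% and no CpG site. The core motifs ACAAAG and ACAATG, which SOX proteins can bind, were in none of the 8 windows on either strand, beside 18.7% and 12.6% of 32851 mouse promoter windows of the same length. TATAAA was in the Col11a2 window alone, 143 bases before the start site, beside 13.6% of all windows. A missing motif says only that these letters are not in this window.

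The 6 libraries of P1 with DOX (3 ectopicFzd1 and 3 control) stood apart from the other 66 in the cartilage genes. Summed over the 10 genes, the level was 2247 to 3804 CPM in ectopicFzd1 DOX P1 and 1514 to 1764 CPM in control DOX P1, against 130 to 534 CPM in the other libraries. The genes made up 0.16% to 0.456% of gene counts in the 6 libraries and 0.00643% to 0.0577% in the other 66. Neither the depth of the 6 libraries, at 3321918 to 7162773 gene counts, nor their share of a satellite-like gene family, at 0.479% to 6.15% of gene counts, lay outside the range of the others, which reached 73.7% for the family. Where leaving them out of the fit changed a call, both values are given.

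**Figure D1:**
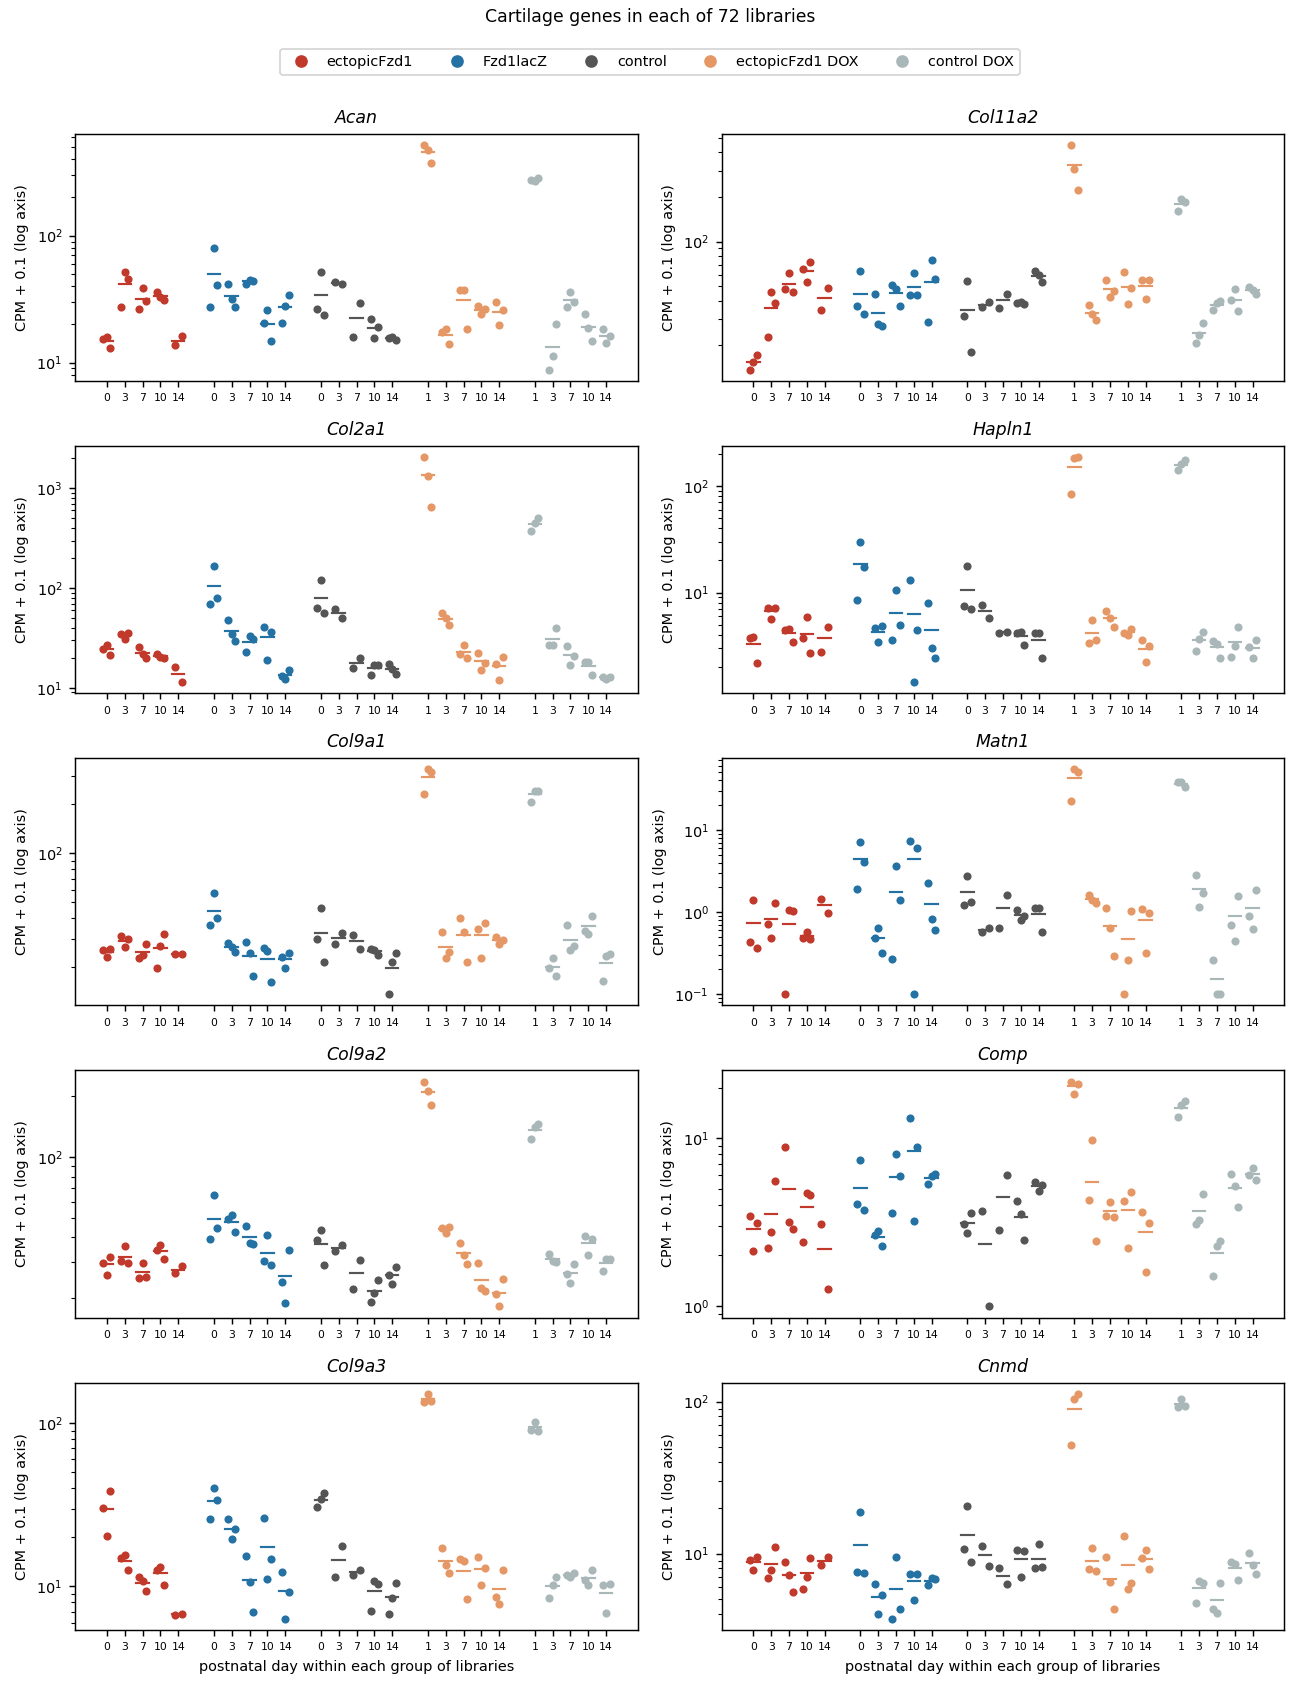
Level of each of the 10 cartilage genes in every library, as CPM + 0.1 on a log axis, against postnatal day within the 5 sets of groups, with a bar at each group mean. The P1 libraries with DOX are the highest points in each panel, and Matn1 is at 0 counts in 5 of the other 66 libraries.

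Compared per length, in TPM (the deposited values, scaled for gene length), the order of the genes differed between the 2 sets of libraries. In the other 66 libraries the median was highest for Col9a2 at 7.10 TPM, Col11a2 at 5.08 TPM and Col9a1 at 4.12 TPM, and lowest for Hapln1 at 0.48 TPM and Matn1 at 0.075 TPM. Cnmd at 2.81 TPM, Col9a3 at 2.16 TPM, Col2a1 at 2.02 TPM and Acan at 1.84 TPM lay between them, with ranges over libraries that overlapped. In the 6 libraries of P1 with DOX the medians ran from Col2a1 at 86.7 TPM, Cnmd at 57.2 TPM and Col9a1 at 56.7 TPM down to Matn1 at 12.8 TPM and Comp at 6.82 TPM. Col2a1, the main fibril gene, thus had the highest median of the 10 at P1 with DOX and a middle one over the other 66, which pool all ages. At P0 its mean was 3.54 TPM in ectopicFzd1 beside 8.39 TPM for Col9a2, 13.04 TPM in Fzd1lacZ beside 13.5 TPM for Col9a2, and 9.32 TPM in control beside 8.71 TPM for Col9a2, so its place in the order at that age differed between genotypes.

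The first comparison asked how far the cartilage genes at P1 with DOX lay from those at P0 without DOX, the nearest age, over ectopicFzd1 and control. It was added after the levels had been seen, and age, DOX and the ID series in the sample titles differ together between the 2 sets, so they cannot be told apart. Col2a1 was at 2054, 1341 and 647 CPM in ectopicFzd1 DOX P1 and at 376, 452 and 501 CPM in control DOX P1, against 24.6, 26.6 and 21.4 CPM in ectopicFzd1 P0 and 63.7, 121 and 55.7 CPM in control P0. Hapln1 was at 83.6, 181 and 186 CPM in ectopicFzd1 DOX P1 and at 140, 159 and 176 CPM in control DOX P1, against 3.69, 3.76 and 2.09 CPM in ectopicFzd1 P0 and 7.34, 17.5 and 6.94 CPM in control P0. Every P1 library lay above every P0 library in both genes. Matn1, at 22.4 to 54.3 CPM in the 6 libraries against 0.261 to 2.63 CPM in those 6 at P0, had the largest difference.

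A gene is called here when its p by edgeR's quasi-likelihood test, after Benjamini-Hochberg adjustment over every gene tested, is below 0.05. At P1 with DOX all 10 genes were called higher than at P0 without DOX. Of all genes tested, 20.8% were called higher and 35.9% in either direction. The log2 differences ran from 1.86 (SE 0.13) for Col9a3 to 5.25 (SE 0.37) for Matn1, with a median of 3.29 beside 0.09 over all genes tested. Col2a1 was 4.13 (SE 0.20) and Acan 3.99 (SE 0.19) higher. At P3 with DOX all 10 were called lower than at P1 with DOX, from -2.02 for Comp to -5.36 for Hapln1 on the log2 scale, beside 15.7% of all genes called lower and 26.9% in either direction.

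Other genes of the cartilage programme were read from lists that did not hold the 10 genes. These lists too were chosen with earlier results of these data known. Of 16 other matrix genes of chondrocytes, 15 were called higher at P1 with DOX than at P0, with a median log2 difference of 2.0. They included Matn3, a second matrilin, at 5.30, Cytl1, a secreted protein of chondrocytes, at 3.67, and Col11a1, a further type XI collagen chain, at 2.21. All 7 tested genes of hypertrophic chondrocytes and the growth plate were called higher, with Col10a1, the collagen of hypertrophic cartilage, at 2.61 and the collagenase gene Mmp13 at 2.44. Of 8 genes of proteoglycan synthesis 5 were called higher, with Xylt1, which starts the sugar chains, at 1.51 and the sulfotransferase gene Chst11 at 1.08. Of the 4 tested chondrocyte transcription factors Sox6 (1.26) and Sox5 (0.72) were called, and Sox9 at -0.11 and Trps1 at -0.16 were not.

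Markers of other tissues moved with the cartilage genes in these libraries. Of 9 tested genes of osteoblasts and bone 7 were called higher (median 1.60), among them Spp1, the gene of osteopontin, at 2.99. All 6 skeletal muscle genes were called higher (median 2.89), with Myh8, a myosin of newborn muscle, at 5.90. Of 10 fibroblast genes 8 were called higher (median 0.90), with the fibronectin gene Fn1 at 1.23. The summed fibroblast level was 4072 to 6538 CPM in ectopicFzd1 DOX P1 and 6062 to 8135 CPM in control DOX P1, beside 2408 to 2903 CPM in ectopicFzd1 P0 and 3185 to 4616 CPM in control P0. The summed muscle level was 13.7 to 71.6 CPM in the 6 libraries of P1 with DOX, and 1 or 2 of its 6 genes were at 0 in 4 of the 6 P0 libraries. Of 10 genes of mature olfactory neurons 2 were called lower, beside 15.2% of all genes called lower: Omp at -1.34 and Cnga4, a channel subunit of the odour response, at -0.49. All 5 genes of respiratory ciliated cells and 1 of 5 of sustentacular cells, the supporting cells of the epithelium, were called lower. Of 5 red blood cell genes 2 were called higher and 1 lower. The part of these tissues in the cartilage result was not tested.

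**Figure D2:**
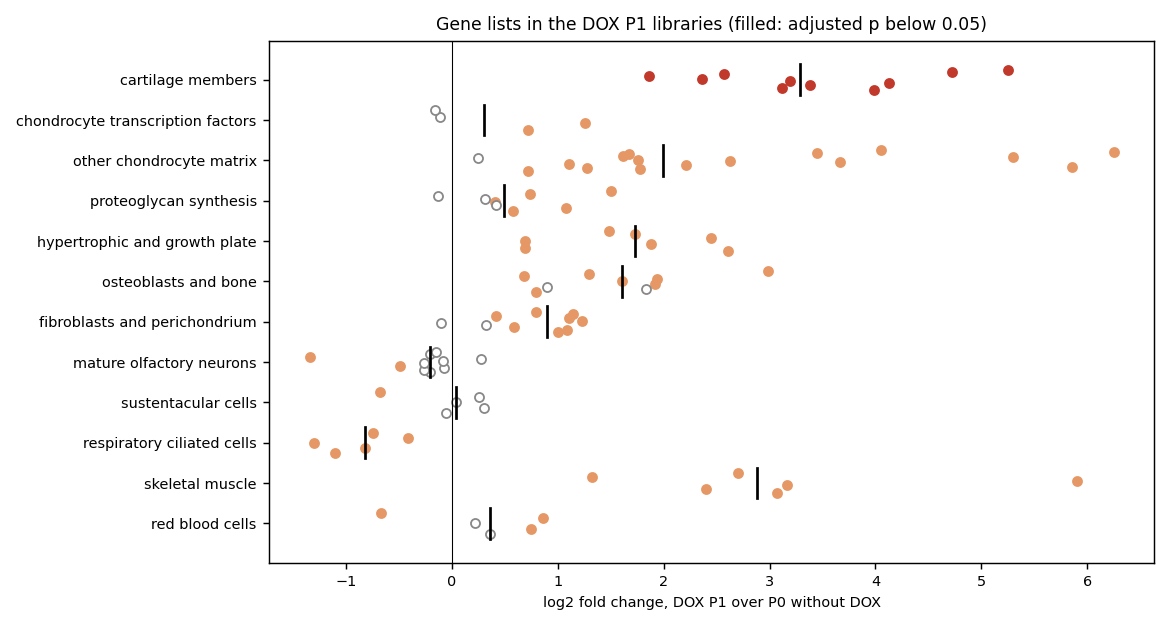
Log2 fold change of each tested gene of 12 lists, P1 with DOX over P0 without DOX, as the mean over ectopicFzd1 and control; filled points were called and black bars are list medians. The cartilage genes lie between 1.86 and 5.25, skeletal muscle between 1.33 and 5.90, and the ciliated cell genes between -1.30 and -0.41.

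Within P1 with DOX the genotypes differed in some of the 10 genes. Acan was at 519, 472 and 371 CPM in ectopicFzd1 DOX P1, against 273, 270 and 283 CPM in control DOX P1. Col11a2 was at 448, 310 and 222 CPM in ectopicFzd1 DOX P1, against 160, 192 and 184 CPM in control DOX P1. Col9a2 was at 237, 213 and 181 CPM in ectopicFzd1 DOX P1, against 123, 141 and 146 CPM in control DOX P1. In these 3 genes, in Col2a1, given above, and in Comp the genotypes did not overlap and replicate 1 of ectopicFzd1 was the highest library. In Col9a3 they did not overlap either, at 134 to 151 CPM in ectopicFzd1 against 89.4 to 101 CPM in control, with replicate 2 of ectopicFzd1 the highest. Replicate 1 of ectopicFzd1 was the lowest of the 6 libraries in Hapln1, at 83.6 CPM beside 140 to 186 CPM in the others, in Matn1, at 22.4 CPM beside 33.1 to 54.3 CPM, and in Cnmd, at 52.0 CPM beside 92.2 to 112 CPM. The 10 genes thus did not move as 1 block within these libraries.

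Fzd1 itself lay at 54.5 to 64.0 CPM in ectopicFzd1 DOX P1 and at 47.8 to 54.3 CPM in control DOX P1, so the 2 genotypes were close in it. At P1 with DOX, 5 of the 10 genes were called higher in ectopicFzd1 than in control, beside 8.71% of all genes called higher and 14.8% in either direction. Col2a1 differed most, by 1.60 (SE 0.25, adjusted p = 8.77e-06), then Col11a2 by 0.87 (SE 0.24, adjusted p = 0.00826), Acan by 0.72, Col9a2 by 0.62 and Col9a3 by 0.58. Hapln1 at -0.07, Cnmd at -0.10, Matn1 at 0.23, Comp at 0.43 and Col9a1 at 0.35 were not called, and the median of the 10 was 0.51 beside 0.01 over all genes tested. In the same comparison 5 of 10 fibroblast genes and 3 of 10 genes of mature neurons were called lower, and 1 of 16 other chondrocyte matrix genes was called higher; their part in the result was not tested. The calls were sensitive to single libraries: 2 were left without control DOX P1 replicate 1, and 3 without control DOX P1 replicate 3, ectopicFzd1 DOX P1 replicate 1 or ectopicFzd1 DOX P1 replicate 2. Acan was lost in each of these cases and without control DOX P1 replicate 2. With only these 6 libraries in the fit 1, Col9a3, was called, and limma on log2(TPM + 0.1) called Col2a1 alone. On log2(TPM + 1) limma lost Col9a2 (adjusted p = 0.0811) and kept the other calls. It then also called Matn1 at 0.47 (adjusted p = 0.0334) and Comp at 0.70 (adjusted p = 0.0355), on a scale on which the median of all genes was 0.22.

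**Figure D3:**
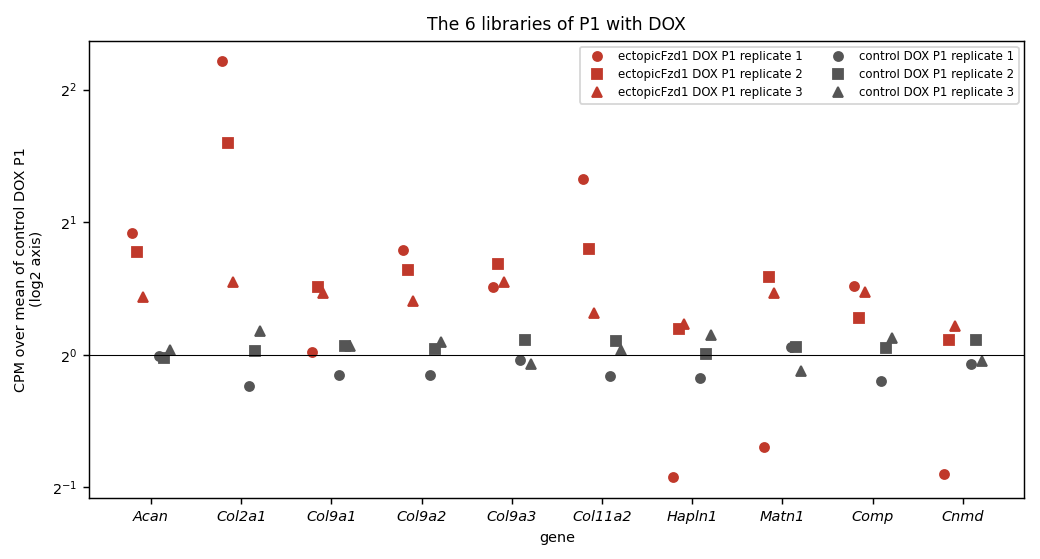
CPM of each gene over its mean in control DOX P1, on a log2 axis, in the 3 ectopicFzd1 and 3 control libraries of P1 with DOX. Replicate 1 of ectopicFzd1 (circles) is the highest point for Acan, Col2a1, Col9a2, Col11a2 and Comp and the lowest for Hapln1, Matn1 and Cnmd.

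At the later ages with DOX none of the 10 genes was called between ectopicFzd1 and control, beside 0.181% and 0.569% of all genes at P3 and P7, and 0.0858% and 0.199% at P10 and P14. The unadjusted p was below 0.05 for 2 of the 10 each at P3 and P7, 1 at P10 and 4 at P14, and DESeq2 and limma on log2 TPM called none at these ages. Averaged over P1 to P14, Col2a1 alone was called, higher by 0.57 (SE 0.13, adjusted p = 0.0178), beside 0.826% of all genes. Acan at 0.41 (adjusted p = 0.115) and Col11a2 at 0.41 (adjusted p = 0.0818) were not called, although Acan was called without control DOX P3 replicate 3 or ectopicFzd1 DOX P7 replicate 3, and Col11a2 without ectopicFzd1 DOX P1 replicate 3. Without P1 the mean effect on Col2a1 was 0.31 (SE 0.16, adjusted p = 0.621) and none of the 10 was called by edgeR, DESeq2 or limma, beside 0.271% of all genes; 2 of the 10 had an unadjusted p below 0.05. The F test that the effect with DOX was alike at the 5 ages called Col2a1 (adjusted p = 0.0157) and Col9a2 (adjusted p = 0.000158), beside 9.60% of all genes. Col2a1 was no longer called in that test without control DOX P1 replicate 1 or ectopicFzd1 DOX P1 replicate 1, and Comp was called in addition without ectopicFzd1 DOX P3 replicate 3.

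Without DOX most of the cartilage genes were lower at P14 than at P0, and 1 was higher. Col2a1, averaged over libraries, was at 24.2 ± 2.6 CPM (SD, n = 3) at P0, 33.6 ± 2.6 CPM (n = 3) at P3 and 13.8 ± 3.4 CPM (n = 2) at P14 in ectopicFzd1. In Fzd1lacZ it was at 105 ± 53.4 CPM at P0, 37.1 ± 9.46 CPM at P3 and 13.4 ± 1.60 CPM at P14 (n = 3 each). In control it was at 80.1 ± 35.6 CPM (n = 3) at P0, 56.3 ± 8.45 CPM (n = 2) at P3 and 15.5 ± 1.76 CPM (n = 3) at P14. The 3 group means lay between 13.4 and 15.5 CPM at P14, and at P0 ectopicFzd1 was the lowest. Col9a3 took the same course in each genotype, with 6.67 ± 0.07 CPM (n = 2) at P14 against 29.7 ± 9.08 CPM at P0 in ectopicFzd1, 9.21 ± 2.97 CPM against 33.1 ± 6.96 CPM in Fzd1lacZ, and 8.50 ± 1.85 CPM against 33.8 ± 3.31 CPM in control (n = 3 each). Its P14 libraries lay below every P0 library. Col11a2 took the other course, with 41.8 ± 9.91 CPM at P14 against 15.4 ± 1.73 CPM at P0 in ectopicFzd1, 53.3 ± 23.4 CPM against 44.4 ± 16.8 CPM in Fzd1lacZ, and 58.7 ± 5.12 CPM against 34.7 ± 18.4 CPM in control.

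Averaged over the 3 genotypes, 7 of the 10 genes were called lower at P14 than at P0, beside 27.2% of all genes called lower, and 8 in either direction, beside 58.8%. In each of the 3 genotypes the P0 and P14 libraries are of different title ID series, so age and series differ together in this comparison. The series could be fitted as a covariate for P14 against P0 in Fzd1lacZ only, which is given below. The fall was largest for Col2a1 at -2.05 (SE 0.18) and Col9a3 at -2.02 (SE 0.15), then Hapln1 at -1.25 (SE 0.27), Acan at -0.63, Col9a1 at -0.59, Col9a2 at -0.51 and Cnmd at -0.43 (adjusted p = 0.0460). The Cnmd call was lost by DESeq2 (adjusted p = 0.1) and without any of 11 single libraries, with -0.24 (adjusted p = 0.286) without Fzd1lacZ P0 replicate 2 and -0.28 (adjusted p = 0.191) without control P0 replicate 2. Col11a2 was called higher by 0.84 (SE 0.16, adjusted p = 1.22e-05) on CPM. By limma it was not called, at 0.22 (adjusted p = 0.441) on log2(TPM + 1), the scale on which the median of all genes was -0.40. Matn1 at -0.79 (SE 0.47) and Comp at 0.17 (SE 0.27) were not called. Matn1 was called lower by limma, at -0.52 (adjusted p = 4.2e-06) on log2(TPM + 1). By edgeR it was called without the libraries above 25% in the satellite-like family, at -0.94 (adjusted p = 0.0408), and with no filter (adjusted p = 0.0415). The median of the 10 was -0.61 beside 0.06 over all genes tested; on log2(TPM + 1) it was -0.86. The F test over the 5 ages called 9 of the 10, all but Comp (adjusted p = 0.0582), beside 68.3% of all genes; Matn1 was not called in it without the 6 libraries of P1 with DOX in the fit (adjusted p = 0.0702).

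By genotype, 2 of the 10 genes were called between P14 and P0 in ectopicFzd1, beside 32% of all genes: Col9a3 at -2.16 (SE 0.29) and Col11a2 at 1.44 (SE 0.31). Without the 6 libraries of P1 with DOX in the fit Col2a1 was called as well, at -0.82 (adjusted p = 0.0426), as it was with no filter, with the satellite-like family left out, by limma and with only the groups compared. Col11a2 was not called by limma. In Fzd1lacZ 7 were called, all lower, beside 22.5% of all genes, with Col2a1 at -2.96 (SE 0.30), Hapln1 at -2.34 (SE 0.39) and Matn1 at -2.21 (SE 0.66) the furthest. With the title ID series as covariate 2 of these 7 calls were left, Col2a1 at -3.47 and Hapln1 at -3.41. Matn1 was lost without the 6 libraries of P1 with DOX (adjusted p = 0.0556) and without Fzd1lacZ P0 replicate 2, P14 replicate 2 or P14 replicate 3. Acan was lost without Fzd1lacZ P14 replicate 1 or 2 and without P0 replicate 2, where it was at -0.26. In control 6 were called lower and Col11a2 higher, beside 45.7% of all genes, with Col2a1 at -2.37 (SE 0.30) and Col9a3 at -1.98 (SE 0.24) the furthest. The Col11a2 call in control was lost without control P0 replicate 1, control P0 replicate 3 or control P14 replicate 1. Limma did not call it in control either, at 0.50 (adjusted p = 0.343) on log2(TPM + 1). The control count fell to 3 without control P0 replicate 2, the highest of the control P0 libraries in Col2a1, Acan, Col11a2 and Hapln1. These counts are not a test of a difference between genotypes, which is given by the tests by age below.

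**Figure D4:**
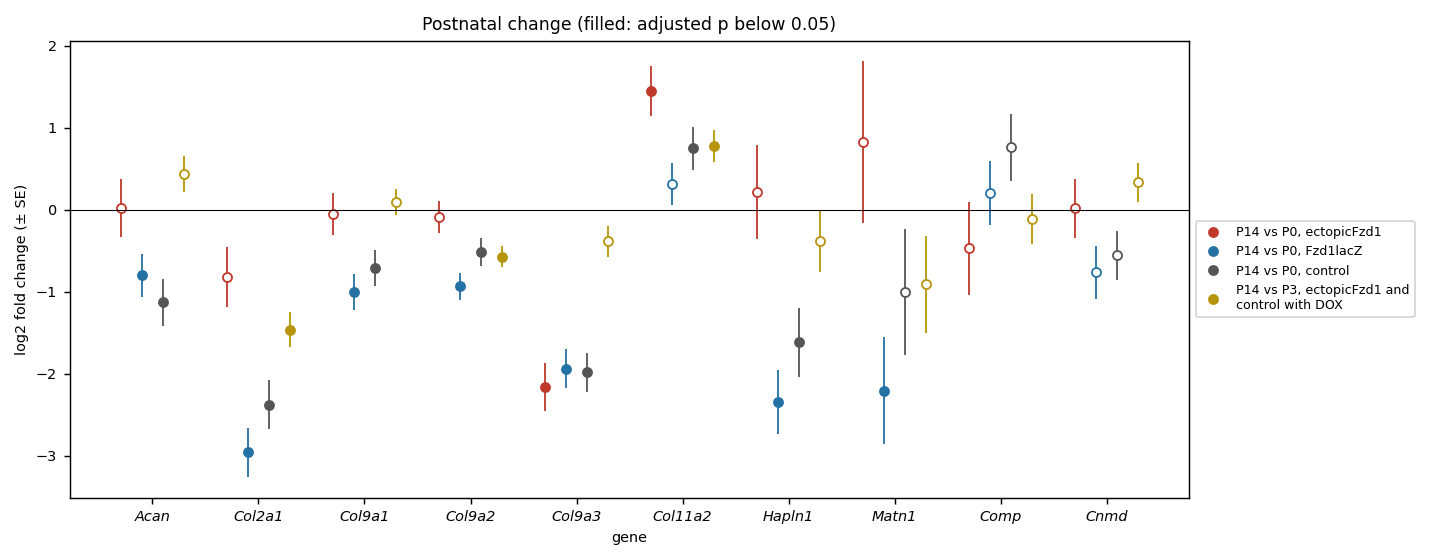
Log2 fold change ± SE of each gene, P14 over P0 without DOX in ectopicFzd1, Fzd1lacZ and control, and P14 over P3 with DOX over ectopicFzd1 and control; filled points were called. Col9a3 lies between -2.16 and -1.94 in the 3 genotypes, and Col11a2 lies above 0 in all 4 comparisons on this CPM scale.

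The calls between neighbouring ages came at the early steps, as did most of the calls over all genes. Between P3 and P0, averaged over genotypes, 5 of the 10 genes were called, beside 19.1% of all genes: Matn1 at -1.70, Col9a3 at -0.94, Cnmd at -0.56 and Col2a1 at -0.51 lower, and Acan at 0.42 higher. The Acan call was lost by DESeq2 (adjusted p = 0.0514) and with only the groups compared in the fit (adjusted p = 0.144). By limma on log2(TPM + 1) Acan (adjusted p = 0.341), Col2a1 (adjusted p = 0.194) and Cnmd (adjusted p = 0.0578) were not called. In ectopicFzd1 and control the P0 and P3 libraries are of different title ID series. Between P7 and P3 Col2a1 at -0.89, Col9a3 at -0.57 and Col9a2 at -0.31 were called lower and Comp at 0.83 higher, beside 24.2% of all genes. None of these 4 was called when the title ID series was a covariate, with Col2a1 at -1.11 (adjusted p = 0.0937), Col9a3 at -0.50 and Col9a2 at -0.19, and Comp then had the other sign, as it had on the TPM scale. Without the libraries above 25% in the satellite-like family Col2a1 alone was called in this step. Between P10 and P7, and between P14 and P10, none was called, beside 2.33% and 0.524% of all genes; 1 and 2 of the 10 had an unadjusted p below 0.05, limma called none and DESeq2 called Col9a3 in the last step. The edgeR count for that step was 2, Col2a1 and Col9a3, without Fzd1lacZ P10 replicate 2, which left the group with its 2 libraries above 25% in the satellite-like family, and 1, Col9a3, without Fzd1lacZ P14 replicate 1. Without control P3 replicate 2 the step to P3 kept 2 calls and the step to P7 kept 2, and without Fzd1lacZ P0 replicate 2 or control P0 replicate 2 Col2a1 and Cnmd were lost from the step to P3. Acan was lost from the step to P3, and Comp or Col9a2 from the step to P7, without several other single libraries.

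With DOX the course was dominated by the P1 libraries. All 10 genes were called lower at P14 than at P1, beside 26.6% of all genes called lower and 48.4% in either direction, from -2.14 (SE 0.27) for Comp to -5.76 (SE 0.22) for Col2a1. From P3, with the P1 libraries out of the comparison, 3 of the 10 were called at P14, beside 31% of all genes. Col2a1 at -1.46 (SE 0.22) and Col9a2 at -0.57 (SE 0.12) were lower and Col11a2 at 0.78 (SE 0.19) was higher. Col2a1 was at 16.5 ± 4.26 CPM at P14 against 49.5 ± 6.97 CPM at P3 in ectopicFzd1 DOX, and at 12.7 ± 0.31 CPM against 31.0 ± 7.57 CPM in control DOX (n = 3 libraries each). The 3 ectopicFzd1 DOX P3 libraries carry 1 title ID, so they may be of 1 animal and their spread technical. In both genotypes the P3 and P14 libraries with DOX are of different title ID series. Col11a2 was not called by limma, at 0.08 on log2(TPM + 1) (adjusted p = 0.808), and its mean was 5.40 TPM at P14 against 6.18 TPM at P3 in ectopicFzd1 DOX and 4.92 TPM against 4.23 TPM in control DOX. Col2a1 was lower on both scales.

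Over the same P14 against P0 comparison the related lists did not go one way. Of the 4 tested transcription factors Sox9 (-1.59), Sox5 (-1.11) and Sox6 (-0.72) were called lower. Of all genes tested 31.6% were called higher at P14, beside the 27.2% lower. Of the 16 other chondrocyte matrix genes 5 were called higher and 3 lower (median -0.07), with Chad, the gene of chondroadherin, at -2.06 and Epyc, the gene of epiphycan, at 1.30. Genes of hypertrophic chondrocytes and bone were mostly called higher, 5 of 7 with 1 lower (median 1.37) and 8 of 9 (median 2.17), with Mmp13 at 4.05 and Bglap, the gene of osteocalcin, at 5.17. Of the genes of mature neurons 10 of 10 were called higher (median 1.45), and of the sustentacular genes 5 of 5 (median 1.67). These lists moved with age beside the cartilage genes, and their part in the fall was not tested.

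The response to gain of Fzd1 was read first as the mean of ectopicFzd1 against control over the 5 ages without DOX. None of the 10 genes was called, beside 9.19% of all genes, and 1 of the 10, Col2a1, had an unadjusted p below 0.05; DESeq2 and limma called none. Col2a1 stood at -0.39 (SE 0.15, adjusted p = 0.0983), and the 10 genes ran from -0.41 for Matn1 to 0.06 for Col9a2, with a median of -0.15 beside -0.01 over all genes tested. With only the ectopicFzd1 and control groups in the fit Col2a1 was called (adjusted p = 0.0147).

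The ages differed. At P0 Col2a1 was at 24.6, 26.6 and 21.4 CPM in ectopicFzd1, against 63.7, 121 and 55.7 CPM in control. Acan was at 15.2, 15.8 and 12.9 CPM in ectopicFzd1, against 26.6, 51.3 and 23.8 CPM in control. Hapln1 was at 3.69, 3.76 and 2.09 CPM in ectopicFzd1, against 7.34, 17.5 and 6.94 CPM in control. The 3 ectopicFzd1 libraries lay below the 3 control libraries in each of these genes, and control replicate 2 was the highest. Col11a2 was at 13.6, 15.5 and 17.1 CPM in ectopicFzd1, against 31.6, 54.4 and 18.1 CPM in control, where replicate 3 lay close to the ectopicFzd1 libraries.

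At P0 4 of the 10 genes were called, all lower in ectopicFzd1, beside 0.677% of all genes called lower and 0.754% in either direction. Col2a1 was at -1.73 (SE 0.27, adjusted p = 5.77e-05), Hapln1 at -1.73 (SE 0.37, adjusted p = 0.00686), Acan at -1.21 (SE 0.27, adjusted p = 0.00901) and Col11a2 at -1.18 (SE 0.27, adjusted p = 0.0144). The other 6 were not called, and the median of the 10 was -0.89 beside -0.02 over all genes tested. Of the lists of other cells and of cartilage none held a called gene at P0; the medians were -0.44 for other chondrocyte matrix, -0.51 for bone, -0.40 for fibroblasts and -0.66 for muscle. Col2a1 alone was called without control P0 replicate 2 or without ectopicFzd1 P0 replicate 3, and Col2a1 and Hapln1 without ectopicFzd1 P0 replicate 1. None was called by limma on log2 TPM or with only these 6 libraries in the fit.

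At P3, P7 and P14 none of the 10 was called, beside 0.569%, 0.704% and 1.76% of all genes; 1, 0 and 1 of the 10 had an unadjusted p below 0.05, and DESeq2 and limma called none. At P10 Col9a2 was called higher, at 34.4, 36.5 and 31.0 CPM in ectopicFzd1 against 19.0, 21.0 and 24.4 CPM in control, by 0.68 (SE 0.18, adjusted p = 0.0119), beside 10.3% of all genes. The groups did not overlap, but the call was lost without control P10 replicate 1, control P10 replicate 2 or ectopicFzd1 P10 replicate 2. Without the 6 libraries of P1 with DOX in the fit, Acan at 0.87 (adjusted p = 0.0462) and Col11a2 at 0.75 (adjusted p = 0.0473) were called at P10 as well. The F test that the effect was alike at the 5 ages called Col2a1 (adjusted p = 0.0131), Acan (adjusted p = 0.0215) and Col11a2 (adjusted p = 0.0292), beside 0.357% of all genes. None of the 3 was called in it without control P0 replicate 2, and 1, Col2a1, was without control P10 replicate 2. Col11a2 was also lost from it without several other single libraries, and Acan without ectopicFzd1 P0 replicate 3.

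**Figure D5:**
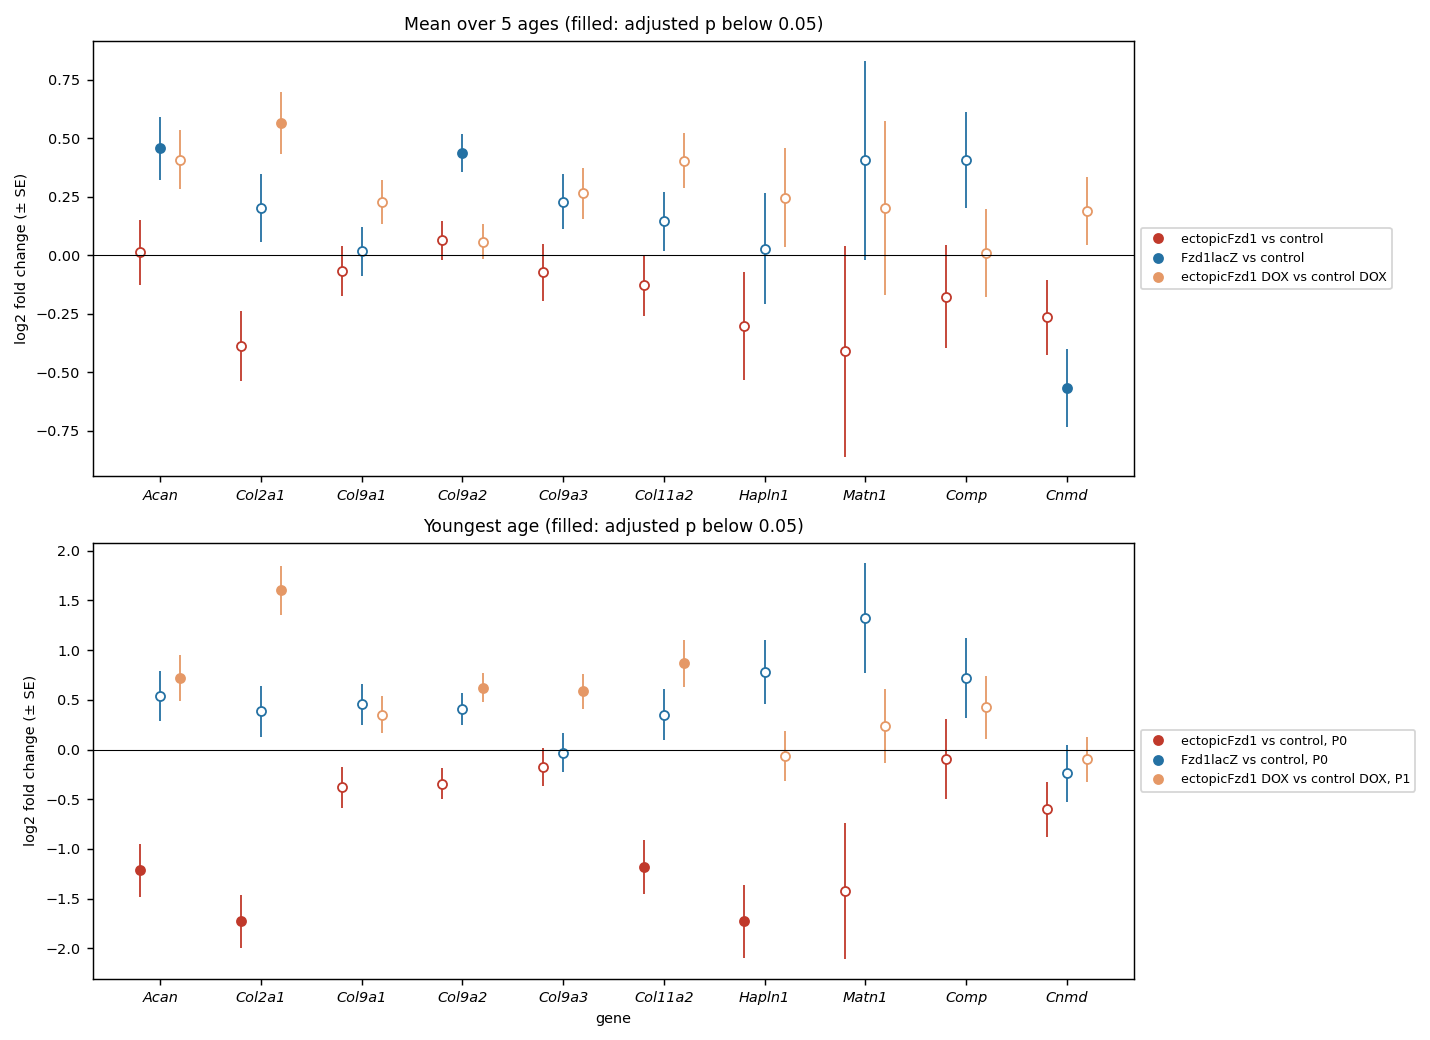
Log2 fold change ± SE of each gene in the 3 genotype comparisons, as the mean over 5 ages (top) and at the youngest age (bottom); filled points were called. At the youngest age Col2a1 lies at -1.73 for ectopicFzd1 against control at P0 and at 1.60 for ectopicFzd1 DOX against control DOX at P1. Fzd1 lay at 205 to 354 CPM in ectopicFzd1 P0 against 38.2 to 44.3 CPM in control P0. At P1 with DOX it lay at 54.5 to 64.0 CPM in ectopicFzd1 against 47.8 to 54.3 CPM in control.

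The response to loss of Fzd1 was read as the mean of Fzd1lacZ against control over the same ages, with the same control libraries. Of the 10 genes 3 were called, beside 2.85% of all genes: Col9a2 higher by 0.44 (SE 0.08, adjusted p = 0.000332), Acan higher by 0.46 (SE 0.13, adjusted p = 0.0435) and Cnmd lower, at -0.57 (SE 0.17, adjusted p = 0.0426). The other 7 ran from 0.02 for Col9a1 to 0.41 for Matn1, and the median of the 10 was 0.22 beside 0.02 over all genes tested. Col9a2 averaged 49.3 ± 13.7 CPM in Fzd1lacZ against 37.1 ± 7.33 CPM in control at P0, and 33.5 ± 6.39 CPM in Fzd1lacZ against 21.5 ± 2.75 CPM in control at P10 (n = 3 each). Cnmd averaged 6.48 ± 1.38 CPM in Fzd1lacZ against 9.20 ± 2.0 CPM in control at P10, and 6.53 ± 0.39 CPM in Fzd1lacZ against 9.15 ± 2.02 CPM in control at P14. By edgeR Col9a2 stayed called whichever single library was left out; Acan and Cnmd were both lost, leaving 1 call, without control P3 replicate 1, control P7 replicate 1, control P10 replicate 3, control P14 replicate 2, Fzd1lacZ P7 replicate 3, Fzd1lacZ P10 replicate 2, Fzd1lacZ P14 replicate 2 or Fzd1lacZ P14 replicate 3. Either Acan or Cnmd was lost without most of the other single libraries of these groups. Cnmd was lost by DESeq2 too (adjusted p = 0.0566). By limma on log2(TPM + 1) neither Col9a2, at 0.16 (adjusted p = 0.483), nor Acan, at 0.15 (adjusted p = 0.369), was called. The title IDs of the 2 genotypes are of different series at every age but P14, so before P14 genotype and series cannot be told apart.

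At single ages none of the 10 was called between Fzd1lacZ and control, beside 7.73% of all genes at P0, 1.08% and 0.0858% at P3 and P7, and 0.285% and 0.714% at P10 and P14. An unadjusted p below 0.05 was found for 5 of the 10 at P0, 4 at P3, 2 each at P7 and P10 and 1 at P14. DESeq2 called 1, Col9a2 at P10. At that age limma on log2 TPM called 3 of the 10 lower with a pseudocount of 1 and 4 with 0.1, on scales on which the median of all genes tested was -0.61 and -1.16; at the other ages it called none. Matn1 was at 1.78, 7.07 and 3.94 CPM in Fzd1lacZ P0, against 1.13, 2.63 and 1.22 CPM in control P0, and at 7.25, 0 and 5.84 CPM in Fzd1lacZ P10, against 0.950, 0.689 and 0.789 CPM in control P10. The Fzd1lacZ libraries thus spread more widely than the control libraries at both ages and overlapped them. At P10 the values of 7.25 and 5.84 CPM rest on 5 and 4 counts in replicates 1 and 3, of which 68.2% and 73.7% of gene counts were of the satellite-like family and which held 157 and 124 counts of the 10 genes. Replicate 2 held 1414 counts of the 10 genes and 3.31% of that family. Hapln1 was called at P0 without Fzd1lacZ P0 replicate 1 or control P0 replicate 2. The calls of Col2a1, Col9a3, Matn1 and Comp at P10 without Fzd1lacZ P10 replicate 2 rest on replicates 1 and 3, and Col9a2 was called without Fzd1lacZ P10 replicate 1. Without the libraries above 25% in the family, Matn1 was called higher at P0 by 1.29. That omission left only replicate 1 in Fzd1lacZ P7 and only replicate 2 in Fzd1lacZ P10. The difference in Col9a2 at P10 was then 1.07, with a single Fzd1lacZ library. The mean over ages also rested on single Fzd1lacZ libraries at P7 and P10. The F test that the effect was alike at the 5 ages called none by edgeR, beside 2.77% of all genes and with 2 of the 10 at an unadjusted p below 0.05. It called Col2a1 without Fzd1lacZ P10 replicate 2, and limma called 2 with a pseudocount of 1 and 3 with 0.1. Without the libraries above 25% in the satellite-like family this test rests on single Fzd1lacZ libraries at P7 and P10 and is not read.

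DOX itself was compared in control over P3, P7, P10 and P14, where none of the 10 was called, beside 0.867% of all genes; 2 of the 10 had an unadjusted p below 0.05. The ectopic effect without DOX minus that with DOX over the same ages called none either, beside 2.39% of all genes, with 0 of the 10 at an unadjusted p below 0.05. DESeq2 and limma called none in both comparisons. The differences between the effects ran from -0.44 (SE 0.25) for Cnmd to 0.25 (SE 0.13) for Col9a2. Since P0 and P1 have no partner in the other DOX arm, neither the P0 nor the P1 difference entered this test.

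The make-up of the cartilage signal was described by the log2 CPM of a gene minus the mean of the other 9 in the same library. For Col2a1 it was 3.20 ± 0.94 in ectopicFzd1 DOX P1 and 2.10 ± 0.14 in control DOX P1 (SD, n = 3 each), and 1.41 ± 0.15 in ectopicFzd1 P0 beside 2.35 ± 0.17 in control P0. At P14 it was 0.64 ± 0.37 (n = 2) in ectopicFzd1 and 0.65 ± 0.16 (n = 3) in control. Col11a2 went the other way with age, at 2.38 ± 0.40 (n = 2) at P14 against 0.70 ± 0.21 (n = 3) at P0 in ectopicFzd1, and at 2.76 ± 0.12 against 0.96 ± 0.44 in control (n = 3 each). Relative to the other 9, Col2a1 was thus lower and Col11a2 higher at P14 than at P0 in both genotypes.

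Across libraries the 10 genes followed each other mainly through the P1 libraries with DOX. Pearson's r of log2 CPM over the 45 pairs lay between 0.53 and 0.92 over all 72 libraries (median 0.80) and between -0.39 and 0.73 over the other 66 (median 0.29). Over the 66, the closest pair was Col9a3 and Col2a1 at 0.73, and the furthest apart was Col11a2 and Col9a3 at -0.39. Outside the 10, the genes whose log2 CPM was most like the mean of the 10 over all 72 libraries were Clec3a at 0.93, Matn3 at 0.91, Cytl1 at 0.88, Snorc at 0.87, Ucma at 0.83, Thbs3 and Col11a1 at 0.81, and Rab3il1, Maf and Plagl1 at 0.80. Over the 66 libraries 3 of these were still among the nearest 10, Clec3a at 0.62, Cytl1 at 0.62 and Matn3 at 0.60, behind Unc5c at 0.64 and Gli1 at 0.63. The libraries share age, genotype and depth, and these correlations are descriptions.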

How the data were processed

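Total RNA of olfactory epithelium, extracted with TRIzol, was made into libraries with the TruSeq Stranded Total RNA kit and Ribo-Zero Gold, per the labels' protocols. Per the submitters' processing notes, the authors used bcl2fastq 2.18, STAR 2.6.1c and RSEM with the mouse build mm10; the RSEM version, the annotation and the use of strand are not given in the sources used here. The count file the authors deposited gives whole-number read counts for each gene, and the deposited TPM table holds the authors' values scaled for gene length and library. The 4 rows for reads outside genes were left out of library sizes; reads in genes numbered 1314528 to 8788000 per library, of 10479446 to 19719921 reads. The tables share their gene IDs, and symbols were taken from the TPM table.

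Counts of all 72 libraries were fitted in R 4.3.3 with edgeR 4.0.16 (filterByExpr, TMM, 1 term per group, trended dispersion, quasi-likelihood test), with Benjamini-Hochberg adjustment over 22144 genes and a threshold of 0.05. Averaged comparisons weight ages or genotypes equally. Alternatives were DESeq2 1.42.0, its size factors, other filters, limma 3.58.1 on log2 TPM with pseudocounts of 1 and 0.1, a fit on the groups compared, the title ID series as a covariate, the satellite-like family left out of library sizes, 4 ways of leaving out libraries in doubt, and the omission of each single library. The edgeR steps were tested on simulated counts with the same dispersion for every gene, a simpler setting than these libraries. No pair of replicates agreed within sampling noise (lowest chi-square per degree of freedom 2.27). The 10 genes and the lists were chosen with earlier results of these data known. Named genes are the 10, up to 4 called genes of a list by smallest p in an averaged comparison, the 10 genes most like the 10, and Fzd1. Sox9, Trps1, and the genes named in P14 against P0 outside that order were chosen after their values were seen. The comparisons of P1 with DOX with P0, of P3 with P1 and P14, and the mean without P1 were added after the data had been seen. The 3 libraries of ectopicFzd1 DOX P3 carry 1 title ID, 1 library each of ectopicFzd1 DOX P10 and P14 share another, and at P3, P7, P10 and P14 the ID series (leading digits) differ between ectopicFzd1 DOX and control DOX.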

Additional observations from a re-analysis of the deposited data

Results flagged for a closer look

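The effect of ectopicFzd1 against control without DOX differed among the 5 ages in 3 of the 10 genes by edgeR's F test: Col2a1 (adjusted p = 0.0131), Acan (adjusted p = 0.0215) and Col11a2 (adjusted p = 0.0292). Their log2 differences at P0, P3, P7, P10 and P14 were -1.73, -0.76, 0.31, 0.40 and -0.17 for Col2a1, -1.21, -0.03, 0.54, 0.83 and -0.06 for Acan and -1.18, -0.08, 0.38, 0.72 and -0.48 for Col11a2. With DOX the effect differed among P1, P3, P7, P10 and P14 in Col2a1 (adjusted p = 0.0157), with log2 differences of 1.60, 0.66, 0.10, 0.12 and 0.34, and in Col9a2 (adjusted p = 0.000158), with 0.62, 0.49, 0.32, -0.63 and -0.52. The 3 calls without DOX were lost without control P0 replicate 2, and that of Col2a1 with DOX was lost without ectopicFzd1 DOX P1 replicate 1 or control DOX P1 replicate 1. Acan without DOX was also lost without control P10 replicate 2 or ectopicFzd1 P0 replicate 3. Col11a2 was also lost without control P7 replicate 1, any single control P10 library, ectopicFzd1 P10 replicate 3, or ectopicFzd1 P0 replicate 1 or 2. All groups held 2 or 3 libraries, too few to test a single library as an outlier.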

How the results depend on the processing

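Counts here are calls among the 10 genes, summed where several ages or genotypes are named. The shares of all genes called under these settings are not given here, so a changed count is not a result about the 10 genes. For P14 against P3 with DOX, the median of all genes tested was -0.49 on log2(TPM + 1) and -0.77 on log2(TPM + 0.1). The medians of the 10 were -0.39 and -0.82. With limma on log2(TPM + 1) and log2(TPM + 0.1) they were 0 and 0 for ectopicFzd1 at single ages (5 by edgeR), 0 and 0 for its test by age (3), 3 and 4 for Fzd1lacZ at single ages (0), 2 and 3 for its test by age (0), 0 and 0 for ectopicFzd1 with DOX averaged (1) and 6 and 6 for P14 against P3 with DOX (3), where Col11a2 was lost. Fzd1lacZ averaged gave 1 with log2(TPM + 1) in place of 3, and with log2(TPM + 0.1) ectopicFzd1 with DOX gave 1 at single ages in place of 5 and 0 by age in place of 2. DESeq2 called 1 for Fzd1lacZ at single ages and 2 for ectopicFzd1 with DOX averaged. With no filter the counts were 3 for Fzd1lacZ at single ages, 2 for its test by age and 3 for ectopicFzd1 with DOX averaged. Without libraries above 25% in the satellite-like family Fzd1lacZ P7 and P10 held a single library each, so no count is given for Fzd1lacZ there. With only the groups compared in the fit they were 1 for ectopicFzd1 averaged (0), 1 for Fzd1lacZ at single ages (0), 1 for it averaged (3), 2 for ectopicFzd1 with DOX at single ages (5), 3 for it averaged (1) and 1, Col11a2, for DOX in control (0). The title ID series as a covariate left 0 of 4 calls over the 2 steps between ages that could be fitted, 2 of 7 for P14 against P0 in Fzd1lacZ, and 3 of 5 for ectopicFzd1 over 4 ages. Of the 10 genes nearest to the cartilage genes, 6 stayed on log2(TPM + 1), 3 over 66 libraries and 0 with group means taken away. Comp reversed at P7 against P3 (0.83), to -0.17 and -0.37 by limma and -0.084 with the series. The cause was not tested.

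Leaving out each library in turn gave 4 to 11 calls for the steps between ages (9), 2 to 5 for ectopicFzd1 at single ages, 0 to 4 for Fzd1lacZ, 2 to 5 for ectopicFzd1 with DOX, 1 to 3 for Fzd1lacZ averaged, 1 to 2 for ectopicFzd1 with DOX averaged, and 0 to 3, 0 to 1 and 1 to 3 for the tests by age of ectopicFzd1, Fzd1lacZ and ectopicFzd1 with DOX. Of 1091 values of called genes under the other alternatives 992 kept direction and call, 96 kept direction only and 3 reversed; of 1468 with a library left out 1339 kept both and 129 direction only. No paired analysis was possible because the labels number no replicates; the title ID series, which some groups share, was the covariate above and pairs no single libraries. Matn1 and Hapln1, low outside P1 with DOX, are limited by depth.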
